A study of Mus musculus with 12 samples.

Results

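The genes described here encode the machinery that copies DNA in S phase, and they were followed in cultured mouse macrophages. They are 49 genes, each picked by its symbol from the 55573 genes of the count table, and all 49 were among the 14197 genes that passed the filter on low counts. By role, 12 genes act in origin licensing, 6 in helicase activation, 9 are subunits of polymerases and primase, 9 form the sliding clamp, its loader and the single-strand binding complex, 4 act on the lagging strand, 5 supply nucleotides and 4 act on newly made chromatin. The study set macrophages with and without the Polycomb gene Bmi1 side by side, in monoculture and after contact with myeloma cells, and one of its questions was whether BMI1 acts on macrophage proliferation. RNA-seq libraries covered 4 groups of 3: MΦs and MM-MΦs of wt and of BMI1-KO mice, both on C57BL/6. The wt mice were BMI1fl/fl and the BMI1-KO mice BMI1fl/fl Mx1-Cre, a Cre that is switched on by interferon in many tissues. Both genotypes were given 5 doses of poly I:C at 15 mg/kg at an age of 6 to 8 weeks, so the controls carry the floxed alleles and the treatment but not the Cre. Marrow was taken 4 weeks after the last dose, and adherent cells were grown for 7 days in 10% FBS with 5 ng/mL M-CSF. MM-MΦs were then kept for 48 h with 5TGM1 cells, a mouse myeloma line, and the labels do not say whether MΦs were kept for the same time. Total RNA came from sorted CD11b+ F4/80+ cells. The labels do not tie the 3 replicates to separate mice, and p-values then measure only the spread between these samples.

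Replication starts when the origin recognition complex, Cdc6 and Cdt1 load the MCM2-7 ring onto DNA in G1, a step that geminin blocks once S phase has begun. Cdc45 and the GINS complex then turn the ring into an active helicase, DNA polymerase α with primase lays down primers, and polymerases δ and ε extend them with the help of the PCNA clamp. Many of these genes are targets of E2F transcription factors and are expressed mainly in cycling cells. Macrophages grown from marrow with M-CSF divide for some days before they come to rest. In bulk RNA, a change in the share of cells in S phase cannot be told apart from a change in the RNA of each cell.

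Library totals ran from 9662279 to 11142768 counts, with 17611 to 18370 genes detected. Bmi1 had 251 to 364 counts in the 6 wt libraries and was listed at 0 in the 6 BMI1-KO libraries. The total behind the FPKM values of the BMI1-KO libraries exceeded the summed counts by 512 to 734, and that of the wt libraries equalled them to within 1 count, so the BMI1-KO tables lack some counts and the zeros do not check the labels. All 8 macrophage markers reached 10 counts in every group, with a summed level of 12400 to 19100 CPM, the counts of a gene scaled to a common library size. That sum was 16900 to 19100 CPM in the 4 libraries numbered 1 and 12400 to 14600 CPM in the other 8. Cd3e, which marks T cells, had 0 counts in all 12 libraries. The erythroid sum was 0.179 to 4.31 CPM. The stem and progenitor sum was 10.7 to 23.8 CPM in wt and 30.2 to 96.1 CPM in BMI1-KO libraries, most of it from Cd34, with 1 to 3 of 9 genes reaching 10 counts in a group. The neutrophil sum was 129 and 198 CPM in the BMI1-KO libraries numbered 2 and 32.1 to 64.6 CPM elsewhere. For 17 of the 49 genes, exons overlap those of another gene, and the sources used here give no strand setting for the counting.

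Promoter windows of 300 bases, from RefSeq on GRCm38.p6, were matched by symbol for 41 of the 49 genes, which have 50 windows between them. They were searched on both strands for the letters of an E2F site (TTTCCCGC, TTTGGCGC or TTTCGCGC), and matches may overlap each other. These letters stood in 16 of the 50 windows (32.0%), in 3.5% of the windows of all genes tested and in 1.8% of all 32851 windows. The letters CCAAT stood in 60.0% of the windows, beside 37.9% for genes tested and 37.4% for all windows. The GC box GGGCGG was held by 68.0%, beside 61.5% for genes tested and 35.7% for all windows, and TTTGAA by 12%, beside 12.3% and 17.9%. Such a match is a description of the letters and does not show a bound site. The 6 windows below each run from 250 bases before to 30 bases after the RefSeq start. For these 6 genes that start differs from the gene start in the GENCODE M21 annotation. The windows were chosen to set the most matches beside none and the widest spread over the libraries beside the narrowest. E2F letters are in capitals, and each sequence is written 5′ to 3′ on the strand of its gene. Mcm6 had 3 matches, at 110, 106 and 47 bases before the start (chr1:128359676-128359955, minus strand). Mcm5 had 2 overlapping matches, at 153 and 149 bases before the start (chr8:75109259-75109538, plus strand). In Orc1 a single match lay 27 bases before the start (chr4:108579204-108579483, plus strand). Rfc3 had 2 matches, 10 bases before the start and at the start itself (chr5:151651179-151651458, minus strand). In Pold3, the gene with the narrowest spread, a match lay 17 bases after the start (chr7:100121473-100121752, minus strand). Rrm2, the gene with the widest spread, had none of these letters in its window (chr12:24708004-24708283, plus strand).
Mcm6: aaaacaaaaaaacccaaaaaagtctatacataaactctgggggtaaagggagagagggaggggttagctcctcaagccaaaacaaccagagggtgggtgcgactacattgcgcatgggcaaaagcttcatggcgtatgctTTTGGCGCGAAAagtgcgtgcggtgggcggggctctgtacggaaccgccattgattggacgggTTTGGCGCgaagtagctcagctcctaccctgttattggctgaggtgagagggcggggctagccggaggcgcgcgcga
Mcm5: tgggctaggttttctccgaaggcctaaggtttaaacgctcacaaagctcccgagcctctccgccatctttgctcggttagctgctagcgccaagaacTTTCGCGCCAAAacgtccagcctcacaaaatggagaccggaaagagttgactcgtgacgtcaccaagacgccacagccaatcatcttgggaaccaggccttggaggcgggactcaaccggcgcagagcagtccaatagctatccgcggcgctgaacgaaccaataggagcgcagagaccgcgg
Orc1: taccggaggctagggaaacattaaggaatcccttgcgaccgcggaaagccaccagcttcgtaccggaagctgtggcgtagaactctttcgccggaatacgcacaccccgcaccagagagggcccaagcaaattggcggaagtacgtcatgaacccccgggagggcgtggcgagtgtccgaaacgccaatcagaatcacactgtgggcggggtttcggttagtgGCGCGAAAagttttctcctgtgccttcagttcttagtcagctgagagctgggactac
Rfc3: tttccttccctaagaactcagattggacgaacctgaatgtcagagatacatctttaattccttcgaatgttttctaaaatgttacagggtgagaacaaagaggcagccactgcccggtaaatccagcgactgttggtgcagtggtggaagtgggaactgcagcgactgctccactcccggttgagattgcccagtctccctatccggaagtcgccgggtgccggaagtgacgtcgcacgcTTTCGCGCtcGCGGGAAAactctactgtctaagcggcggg
Pold3: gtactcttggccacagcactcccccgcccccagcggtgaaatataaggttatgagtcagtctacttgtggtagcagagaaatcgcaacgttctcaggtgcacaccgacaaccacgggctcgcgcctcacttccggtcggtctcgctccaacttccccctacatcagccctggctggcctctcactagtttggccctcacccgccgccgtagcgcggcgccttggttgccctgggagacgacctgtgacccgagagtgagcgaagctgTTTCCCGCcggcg
Rrm2: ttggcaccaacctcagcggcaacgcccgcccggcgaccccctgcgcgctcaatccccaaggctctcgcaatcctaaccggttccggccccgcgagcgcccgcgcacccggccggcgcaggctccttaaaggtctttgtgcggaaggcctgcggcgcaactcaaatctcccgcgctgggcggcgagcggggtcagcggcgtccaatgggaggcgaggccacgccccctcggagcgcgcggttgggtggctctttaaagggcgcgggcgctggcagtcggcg

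The level of the DNA replication genes differed most between libraries of the same group. The mean log2 CPM over the 49 genes was 3.70, 4.02 and 5.75 in wt MΦ replicates 1, 2 and 3, and 3.71, 4.18 and 5.74 in wt MM-MΦ replicates 1, 2 and 3. In BMI1-KO MΦs it was 3.02, 4.09 and 4.49, and in BMI1-KO MM-MΦs 3.17, 4.17 and 4.67. The wt library numbered 3 stood above all others in both cultures, the BMI1-KO libraries numbered 3 lay between the wt libraries numbered 2 and 3, and the BMI1-KO libraries numbered 1 were lowest. Libraries numbered 2 were close in all 4 groups, at 4.02 to 4.18. The mean of the 3 libraries was 4.49 ± 1.10 for MΦs and 4.55 ± 1.06 for MM-MΦs of wt, and 3.87 ± 0.757 and 4.01 ± 0.764 for those of BMI1-KO (SD, n = 3), so the groups overlapped and the difference of the means was smaller than the SD in each pair of groups.

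**Figure D1:**
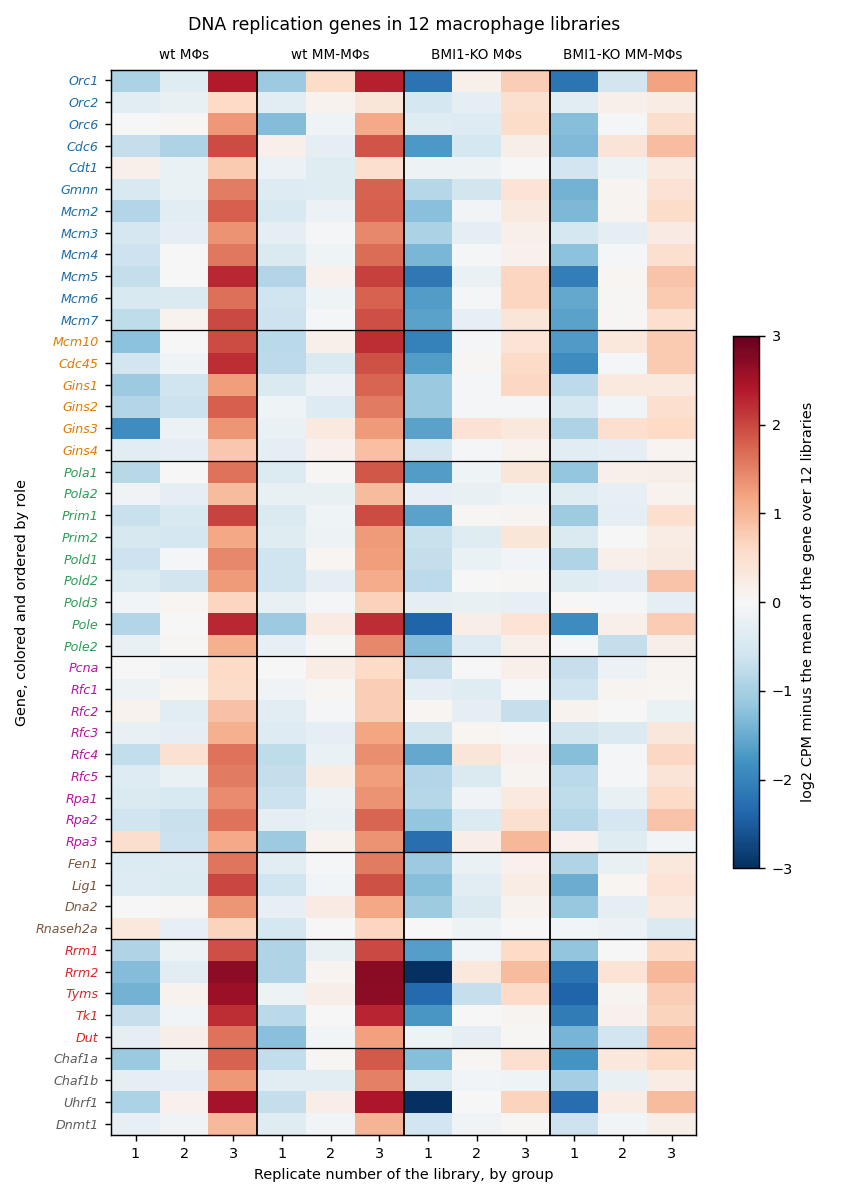
Each row is a DNA replication gene, colored and ordered by role, and each column a library, by group and replicate number. Color gives log2 CPM minus the mean of that gene over the 12 libraries, on a scale that ends at 3 in each direction. The columns numbered 3 of both wt groups are red in all rows, and most rows are blue in the columns numbered 1 of both BMI1-KO groups.

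The order was also read gene by gene. Replicate 3 had the highest level of its group for 49 of 49 genes in wt MΦs and 49 of 49 in wt MM-MΦs. Among all genes tested it was the highest for 39.3% and 37.7%. In BMI1-KO MΦs it was highest for 42 genes and in BMI1-KO MM-MΦs for 44, beside 37.9% and 39.2% of all genes tested. The lowest level of the 12 libraries fell in a BMI1-KO library numbered 1 for 45 of the 49 genes. For this count the share of all genes tested was not taken. Summed over the genes, the level was 1266, 1454 and 4293 CPM in the 3 wt MΦ libraries and 1247, 1594 and 4319 CPM in the wt MM-MΦ libraries. The same sum was 886.4, 1484 and 1874 CPM in BMI1-KO MΦs and 905.8, 1561 and 2072 CPM in BMI1-KO MM-MΦs. Libraries numbered 3 also had a higher share of mitochondrial counts, 1.36 to 1.57% against 0.893 to 1.26% in the other 8, and its part in these levels was not tested.

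**Figure D2:**
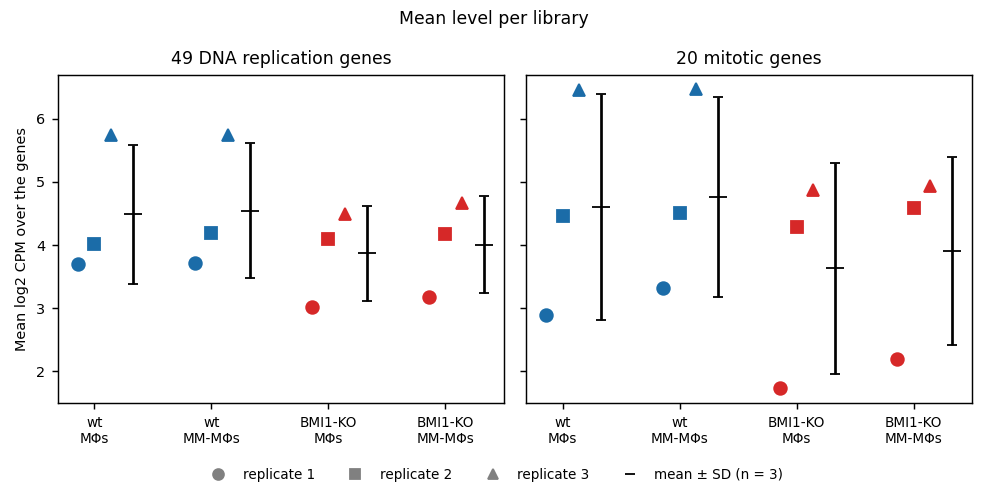
Mean log2 CPM per library over the 49 DNA replication genes (left) and over 20 mitotic genes (right), with the symbol giving the replicate number, blue for wt and red for BMI1-KO, and the bar the mean ± SD of the 3 libraries. In both lists replicate 3 is highest and replicate 1 lowest in every group, and the mitotic genes lie farther apart.

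Genes of mitosis, which act after replication is complete, showed the same order with a wider range. Their mean log2 CPM was 2.90, 4.46 and 6.46 in wt MΦs and 3.32, 4.51 and 6.47 in wt MM-MΦs. The values were 1.73, 4.29 and 4.87 in BMI1-KO MΦs and 2.19, 4.59 and 4.93 in BMI1-KO MM-MΦs. The span of a gene, its highest minus its lowest log2 CPM over the 12 libraries, had a median of 5.01 for the 20 mitotic genes, 2.92 for the 49 DNA replication genes and 1.13 for all genes tested. A span at or above 2.92 was found for 9.85% of all genes tested.

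**Figure D3:**
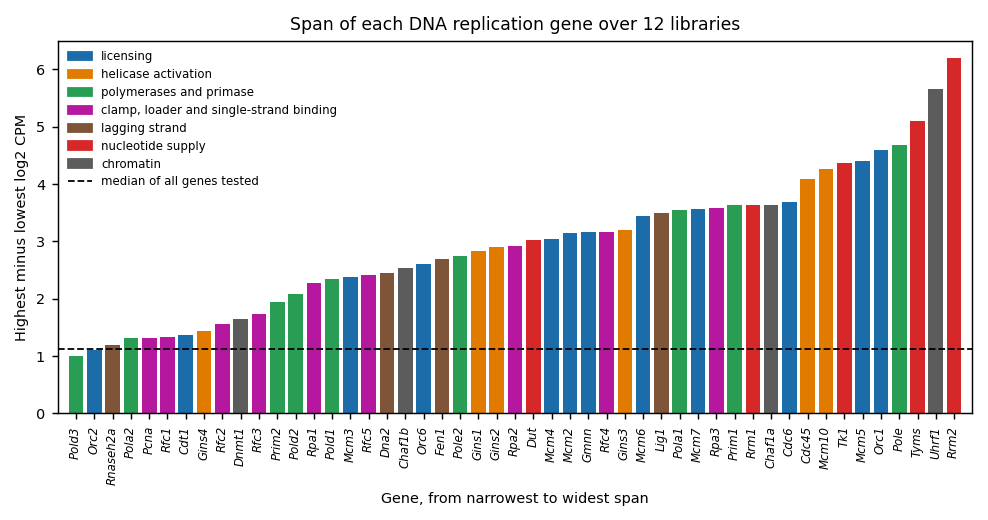
Bars give the span of each DNA replication gene over the 12 libraries in log2 units, colored by role, and the dashed line gives the median span of all genes tested (1.13). Spans run from 1.0 for Pold3 to 6.19 for Rrm2, and 47 of the 49 bars rise above the line.

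Spans differed widely within the machinery. The widest was that of Rrm2, the small subunit of ribonucleotide reductase whose protein is made for S phase and then degraded, at 6.19. It was followed by Uhrf1, which recruits DNA methylation to new strands, at 5.65, Tyms, the maker of thymidylate, at 5.10, Pole, the catalytic subunit of polymerase ε, at 4.68 and Orc1, the origin subunit that varies through the cell cycle, at 4.59. The narrowest were those of Pold3, a subunit of polymerase δ that also serves in repair, at 1.0, Orc2 at 1.11, Rnaseh2a, which removes ribonucleotides from DNA, at 1.20, and Pcna and Pola2 at 1.31. Among these, exons of Pole, Orc1, Orc2 and Rnaseh2a overlap those of another gene. By role, the median span was 4.37 for nucleotide supply, 3.16 for licensing, 3.08 for chromatin, 3.05 for helicase activation, 2.57 for the lagging strand, 2.35 for polymerases and primase and 2.28 for the clamp, loader and single-strand binding genes. The 16 genes with E2F letters in a window had a median span of 3.32 (1.0 to 5.65) and the 25 genes with a window but without these letters 2.92 (1.11 to 6.19). Among tested genes outside the machinery, those medians were 0.96 with the letters and 0.97 without.

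Within licensing, the levels below are CPM with TMM scaling, given for replicates 1, 2 and 3 of each group. Orc1 had 1.02, 1.63 and 11.9 CPM in wt MΦs, 0.898, 3.21 and 11.6 in wt MM-MΦs, 0.312, 2.38 and 3.72 in BMI1-KO MΦs and 0.319, 1.40 and 5.19 in BMI1-KO MM-MΦs. Cdc6 had 4.17, 3.57 and 27.6 CPM in wt MΦs, 7.69, 5.59 and 26.0 in wt MM-MΦs, 1.98, 4.77 and 7.89 in BMI1-KO MΦs and 2.66, 9.12 and 13.4 in BMI1-KO MM-MΦs. Both genes of ring loading stood at 10 CPM or less in most libraries and at 11.6 to 27.6 CPM in the wt libraries numbered 3. Cdt1 had 70.9, 56.3 and 112 CPM in wt MΦs, 57.2, 49.6 and 91.8 in wt MM-MΦs, 58.1, 57.6 and 64.0 in BMI1-KO MΦs and 43.3, 57.8 and 78.2 in BMI1-KO MM-MΦs. Cdt1, which brings the ring to the origin, had a span of 1.36, and its groups overlapped in all comparisons. Gmnn had 5.49, 6.64 and 22.6 CPM in wt MΦs, 5.79, 5.90 and 26.4 in wt MM-MΦs, 4.17, 5.15 and 10.2 in BMI1-KO MΦs and 2.76, 8.12 and 10.4 in BMI1-KO MM-MΦs. Geminin, the inhibitor of Cdt1, spanned 3.17, and the same library was highest in each culture of wt. Mcm2 had 20.3, 29.6 and 131 CPM in wt MΦs, 27.2, 33.2 and 130.3 in wt MM-MΦs, 15.5, 35.2 and 45.8 in BMI1-KO MΦs and 14.6, 39.7 and 55.01 in BMI1-KO MM-MΦs. Mcm5 had 22.2, 36.5 and 176 CPM in wt MΦs, 19.9, 40.2 and 153 in wt MM-MΦs, 8.12, 31.7 and 57.3 in BMI1-KO MΦs and 8.503, 38.2 and 66.5 in BMI1-KO MM-MΦs. Mcm3 had 42.5, 48.8 and 153 CPM in wt MΦs, 48.9, 58.2 and 163 in wt MM-MΦs, 31.4, 49.4 and 67.0 in BMI1-KO MΦs and 41.9, 50.1 and 71.8 in BMI1-KO MM-MΦs. The 3 ring subunits overlapped between genotypes in both cultures, since BMI1-KO replicate 3 lay above wt replicates 1 and 2. Orc2 was the flattest licensing gene, at 12.4 to 27.1 CPM over all libraries. Orc6, Mcm4, Mcm6 and Mcm7 had spans of 2.60, 3.04, 3.45 and 3.57.

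Cdc45 and the GINS complex bind the loaded ring to make the working helicase. Cdc45 had 5.89, 7.96 and 40.9 CPM in wt MΦs, 4.99, 6.42 and 32.98 in wt MM-MΦs, 2.60, 8.87 and 13.2 in BMI1-KO MΦs and 2.23, 8.32 and 15.0 in BMI1-KO MM-MΦs. Gins2 had 6.71, 7.86 and 43.4 CPM in wt MΦs, 11.3, 9.52 and 37.0 in wt MM-MΦs, 5.62, 12.1 and 12.1 in BMI1-KO MΦs and 8.61, 11.8 and 17.6 in BMI1-KO MM-MΦs. The wt libraries numbered 3 had at least 32.98 CPM of both, and no BMI1-KO library had more than 17.6 CPM. Gins4 had 19.2, 20.01 and 42.6 CPM in wt MΦs, 19.8, 26.5 and 45.5 in wt MM-MΦs, 16.7, 23.7 and 26.1 in BMI1-KO MΦs and 19.0, 19.8 and 25.8 in BMI1-KO MM-MΦs. Gins4 had a span of 1.44, the smallest of the complex, while Gins3 had only 4 to 62 counts. Mcm10, which helps to start the helicase, and Gins1 spanned 4.26 and 2.84. Gins2 shares exonic bases with Gse1, and Cdc45 with Ufd1.

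Polymerase α with primase starts each strand, and polymerases δ and ε extend it. Pola1 had 15.9, 27.9 and 87.8 CPM in wt MΦs, 21.3, 28.9 and 104 in wt MM-MΦs, 8.75, 26.0 and 36.2 in BMI1-KO MΦs and 12.5, 31.6 and 32.3 in BMI1-KO MM-MΦs. Pole had 12.8, 23.9 and 114 CPM in wt MΦs, 11.0, 27.9 and 109 in wt MM-MΦs, 4.27, 27.1 and 31.5 in BMI1-KO MΦs and 6.27, 26.1 and 39.9 in BMI1-KO MM-MΦs. Pole2 had 6.61, 7.96 and 16.3 CPM in wt MΦs, 6.49, 7.86 and 21.3 in wt MM-MΦs, 3.02, 5.82 and 8.62 in BMI1-KO MΦs and 7.55, 4.61 and 8.68 in BMI1-KO MM-MΦs. Replicate 3 of wt was again highest for each. Exons of Pole2 overlap those of Gm49384. Pold3 had 63.6, 70.5 and 105 CPM in wt MΦs, 57.3, 65.7 and 109 in wt MM-MΦs, 54.7, 57.2 and 56.5 in BMI1-KO MΦs and 68.3, 65.9 and 55.6 in BMI1-KO MM-MΦs. For Pold3 the 3 wt MΦ libraries lay above the 3 BMI1-KO MΦ libraries, and the MM-MΦ libraries overlapped. Pola2, the accessory subunit of polymerase α, lay at 24.7 to 34.4 CPM in all but the wt libraries numbered 3, where it reached 61.5 and 61.1 CPM. Spans were 3.63 for Prim1 and 1.94 for Prim2, the subunits of primase, and 2.35 for Pold1 and 2.08 for Pold2 of polymerase δ.

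PCNA, the sliding clamp, was the most abundant of the 49 per exon length. Pcna had 237, 224 and 362 CPM in wt MΦs, 244, 283 and 367 in wt MM-MΦs, 149, 240.1 and 266 in BMI1-KO MΦs and 148, 213 and 255 in BMI1-KO MM-MΦs. The lowest Pcna values were those of BMI1-KO replicate 1, and the remaining BMI1-KO values were 213 to 266 CPM beside 224 to 283 CPM in wt replicates 1 and 2. Rfc3 had 8.43, 8.17 and 20.7 CPM in wt MΦs, 7.49, 8.07 and 22.6 in wt MM-MΦs, 6.67, 10.3 and 9.89 in BMI1-KO MΦs and 6.70, 7.22 and 12.4 in BMI1-KO MM-MΦs. Rfc2 had 28.9, 21.2 and 49.5 CPM in wt MΦs, 21.7, 26.2 and 45.0 in wt MM-MΦs, 28.1, 21.8 and 16.6 in BMI1-KO MΦs and 28.9, 27.2 and 23.4 in BMI1-KO MM-MΦs. Rfc2 and Rfc3 are subunits of the clamp loader, and Rfc2 was the only gene whose lowest level in BMI1-KO MΦs was in replicate 3. Its exons overlap those of Lat2. Rpa2 had 6.10, 5.82 and 29.4 CPM in wt MΦs, 7.59, 8.17 and 31.9 in wt MM-MΦs, 4.06, 7.05 and 13.1 in BMI1-KO MΦs and 5.10, 6.51 and 17.1 in BMI1-KO MM-MΦs. Rpa2, part of the complex that coats single strands, was highest in wt replicate 3. Rpa3 had only 2 to 53 counts and a span of 3.59. The other loader subunits Rfc1, Rfc4 and Rfc5 spanned 1.33, 3.17 and 2.42, and Rpa1 spanned 2.28.

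On the lagging strand, Fen1 trims the flap of each fragment and Lig1 seals the nick. Fen1 had 18.4, 18.7 and 74.3 CPM in wt MΦs, 19.3, 23.6 and 71.8 in wt MM-MΦs, 11.3, 21.1 and 26.6 in BMI1-KO MΦs and 13.0, 21.1 and 30.4 in BMI1-KO MM-MΦs. Lig1 had 27.7, 27.2 and 145 CPM in wt MΦs, 23.9, 33.9 and 136 in wt MM-MΦs, 14.7, 28.9 and 41.9 in BMI1-KO MΦs and 12.7, 37.4 and 48.2 in BMI1-KO MM-MΦs. Dna2 had 11.0, 11.2 and 27.6 CPM in wt MΦs, 9.19, 12.9 and 24.6 in wt MM-MΦs, 5.10, 8.01 and 11.7 in BMI1-KO MΦs and 4.89, 9.02 and 13.3 in BMI1-KO MM-MΦs. Dna2, a nuclease and helicase that cuts long flaps, was lowest in BMI1-KO replicate 1 in both cultures, and BMI1-KO replicate 3 lay just above wt replicates 1 and 2. Rnaseh2a lay at 8.29 to 19.3 CPM in all libraries.

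Nucleotide supply held the largest differences between libraries. Rrm2 had 7.32, 14.6 and 118 CPM in wt MΦs, 9.68, 19.1 and 120.1 in wt MM-MΦs, 1.46, 22.8 and 35.5 in BMI1-KO MΦs and 3.83, 24.2 and 36.3 in BMI1-KO MM-MΦs. Tyms had 2.74, 8.27 and 47.2 CPM in wt MΦs, 6.89, 8.69 and 50.3 in wt MM-MΦs, 1.35, 4.67 and 11.5 in BMI1-KO MΦs and 1.27, 8.02 and 12.9 in BMI1-KO MM-MΦs. Tk1 had 17.7, 27.2 and 134 CPM in wt MΦs, 16.4, 29.0 and 140.5 in wt MM-MΦs, 8.44, 28.7 and 30.4 in BMI1-KO MΦs and 6.59, 31.3 and 45.5 in BMI1-KO MM-MΦs. These 3 enzymes make deoxynucleotides, thymidylate and, from salvaged thymidine, its monophosphate. In wt MΦs the library numbered 3 had 118 CPM of Rrm2 against 7.32 CPM in replicate 1, and BMI1-KO replicate 1 had 1.46 CPM. Rrm1, the large subunit of the reductase, and Dut, which clears dUTP, spanned 3.64 and 3.03. Exons of Tk1 overlap those of Afmid. Only 2 pseudogenes named after members were looked up, Pcna-ps2 with 5 to 30 counts and Tyms-ps with 0 to 6. Their sequences were not compared with those of the members, and how reads were split among copies is not stated.

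Chromatin genes act on the new duplex. Chaf1a had 8.84, 17.5 and 66.7 CPM in wt MΦs, 11.5, 19.9 and 69.7 in wt MM-MΦs, 7.92, 20.02 and 27.5 in BMI1-KO MΦs and 5.42, 24.1 and 29.3 in BMI1-KO MM-MΦs. Uhrf1 had 18.9, 39.9 and 208 CPM in wt MΦs, 22.3, 41.9 and 198 in wt MM-MΦs, 3.96, 36.8 and 58.4 in BMI1-KO MΦs and 7.33, 42.7 and 70.7 in BMI1-KO MM-MΦs. Dnmt1 had 192, 213 and 450.0 CPM in wt MΦs, 178, 215 and 461 in wt MM-MΦs, 153, 213 and 233 in BMI1-KO MΦs and 147, 214 and 258 in BMI1-KO MM-MΦs. Chaf1a belongs to the histone chaperone CAF-1, and Dnmt1 copies DNA methylation to the new strand. Each of them was highest in wt replicate 3, as was Chaf1b, the partner of Chaf1a, with a span of 2.53. Exons of Chaf1a overlap those of Ubxn6.

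In MM-MΦs, the comparison of genotypes that the study centers on, all 49 genes had a log2 fold change below 0 in BMI1-KO relative to wt, and none of them passed the test. The median was −0.72, from −1.57 for Tyms to −0.04 for Orc2, beside −0.01 for all genes tested. In edgeR's quasi-likelihood test 0 of 49 passed an adjusted p of 0.05, 0 had an unadjusted p under that value, and DESeq2 and limma-voom also called 0. With the replicate number as a block across both genotypes, a pairing that was not established, the median was −0.55, the median standard error 0.285, and 22 of 49 had an unadjusted p under 0.05, with 0 called by edgeR. In that fit 1667 of the 14197 genes tested had an unadjusted p under 0.05, and edgeR called 181. Without the block, 0.0634% of all genes tested passed. The standard error of a fold change had a median of 0.735 over the 49, as large as the median difference itself. No gene had 3 wt MM-MΦ libraries apart from the 3 BMI1-KO MM-MΦ libraries, while 8.85% of all genes tested did. By role the median log2 fold change was −1.16 for nucleotide supply, −0.80 for the lagging strand and for chromatin, −0.76 for licensing, −0.67 for helicase activation, and −0.53 for polymerases and primase and for the clamp group. The smallest p within each role belonged to Pcna (−0.53, SE 0.276), Dna2 (−0.78, SE 0.507), Pole2 (−0.78, SE 0.529), Chaf1b (−0.82, SE 0.559), Gins4 (−0.51, SE 0.363), Tyms (−1.57, SE 1.14) and Mcm3 (−0.72, SE 0.554), and the adjusted p from edgeR was 0.999 for each of the 49.

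The sign of the median changed when only wt replicate 3 was left out, a fit that keeps replicate 3 of BMI1-KO. Without wt MM-MΦ replicate 3 the median log2 fold change was 0.20 and 43 of the 49 genes lay above 0. The 6 that stayed below 0 were Dna2, Gins4, Pcna, Pole2, Rfc1 and Tyms. Without all 4 libraries numbered 3 the median was −0.15, with 39 genes below 0, and without BMI1-KO MM-MΦ replicate 1 it was −0.43, with 44 below 0. None of these fits called a gene of the list.

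**Figure D4:**
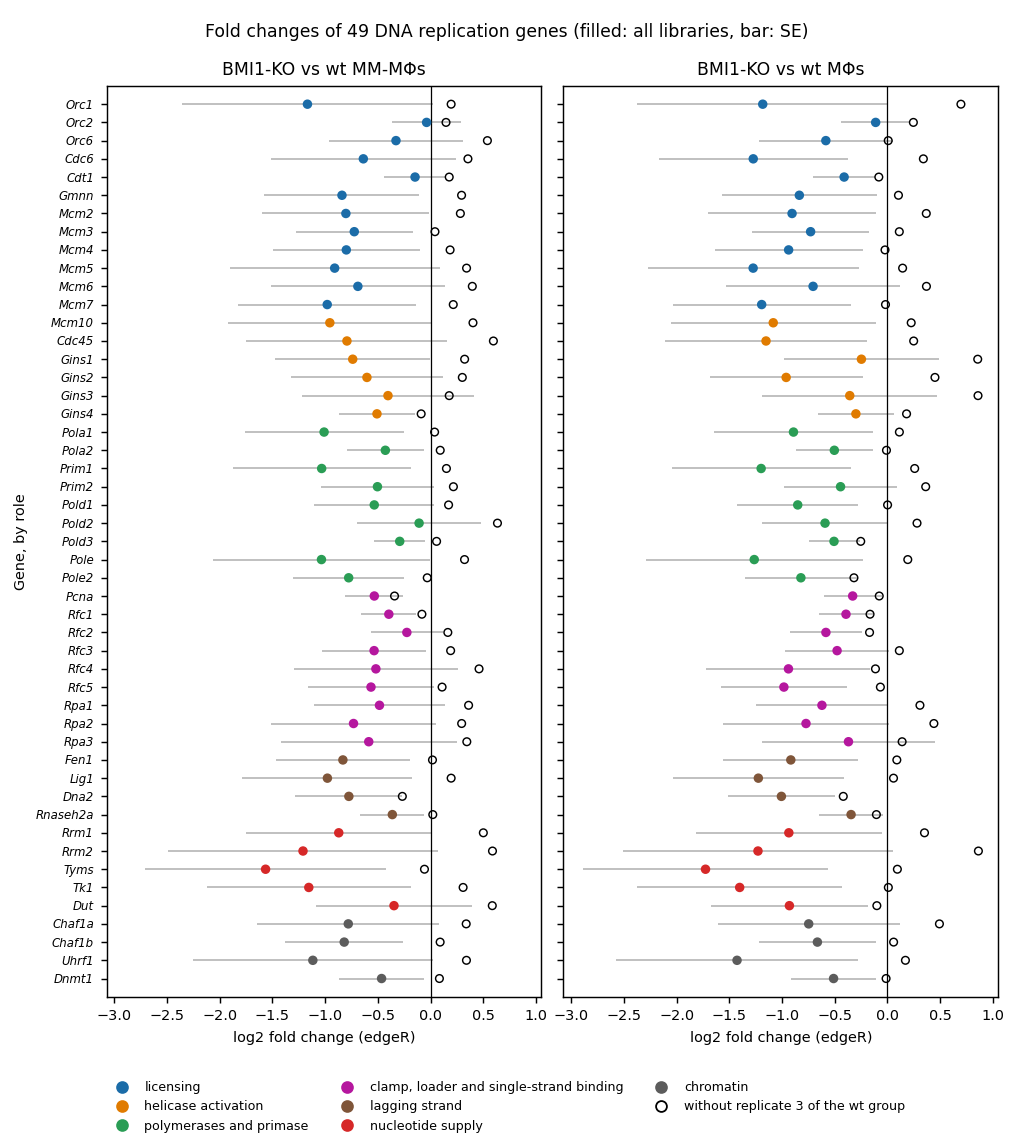
Filled points give the edgeR log2 fold change of each DNA replication gene in BMI1-KO relative to wt, colored by role, with a bar of 1 SE, for MM-MΦs (left) and MΦs (right). Open circles leave out replicate 3 of the wt group. All filled points lie below 0, and 43 (left) and 34 (right) of the 49 open circles lie above it.

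The genotypes were also compared in MΦs that had not met myeloma cells. All 49 genes had a log2 fold change below 0 in BMI1-KO relative to wt MΦs, with a median of −0.84, from −1.73 for Tyms to −0.11 for Orc2. Of the 49, 0 passed in edgeR, with 0 at an unadjusted p under 0.05, and 0 were called by DESeq2 or limma-voom, where 0.0493% of all genes tested passed in edgeR. The block across both genotypes gave a median of −0.63 and an unadjusted p under 0.05 for 27 of 49, and edgeR called 1 of them, Dna2 (−0.96, edgeR adjusted p = 0.0316). In that fit 1894 of the 14197 genes tested had an unadjusted p under 0.05, and edgeR called 206. Groups did not overlap for 1 gene, Pold3, against 10.0% of all genes tested. It differed by −0.51 on the log2 scale (SE 0.242, edgeR adjusted p = 0.904). The others with the smallest p of their role were Dna2 (−1.01, SE 0.509), Rfc2 (−0.58, SE 0.34), Tyms (−1.73, SE 1.16), Cdc6 (−1.27, SE 0.898), Gins2 (−0.96, SE 0.726) and Dnmt1 (−0.51, SE 0.402), with edgeR adjusted p from 0.904 to 1 over the 49 genes. Without wt MΦ replicate 3 the median was 0.11, with 34 genes above 0, and without the 4 libraries numbered 3 it was −0.19, with 15 above 0. Without BMI1-KO MΦ replicate 1 it was −0.54, with 4 above 0.

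No DNA replication gene passed the test of co-culture, which compares MM-MΦs with MΦs within each genotype. Between libraries of the same number, single genes differed by −1.62 to 2.39 on the log2 CPM scale, both for Rpa3, which had 2 to 53 counts. In wt the median log2 fold change of MM-MΦs relative to MΦs was 0.02, with 27 genes above 0 and 22 below, from −0.46 for Dut to 0.50 for Gins1. In edgeR 0 of 49 passed and 0 had an unadjusted p under 0.05, beside 0.0916% of all genes tested that passed, and DESeq2 and limma-voom called 0. In BMI1-KO the median was 0.13, with 41 above 0 and 8 below, from −0.29 for Rpa3 to 0.78 for Cdc6. Again 0 of 49 passed in edgeR, DESeq2 and limma-voom and 0 had an unadjusted p under 0.05, beside 0.190% of all genes tested in edgeR. The smallest p of each role in wt belonged to Cdt1 at −0.27, Gins1 at 0.50, Pole2 at 0.21, Rfc4 at −0.32, Rnaseh2a at −0.17, Dut at −0.46 and Chaf1b at 0.10 on the log2 scale, with standard errors of 0.294 to 0.763. In BMI1-KO it belonged to Cdc6 at 0.78, Gins2 at 0.35, Pold3 at 0.17, Rfc2 at 0.26, Rnaseh2a at −0.19, Tk1 at 0.30 and Uhrf1 at 0.28, with standard errors of 0.242 to 1.14. All adjusted p from edgeR were 1 in both genotypes. Leaving out replicate 3 of only 1 culture moved these medians. In wt the median was 0.99 without MΦ replicate 3 and −0.85 without MM-MΦ replicate 3, and in BMI1-KO 0.50 and −0.23. Such a fit has a replicate 3 in 1 culture only, so it cannot tell co-culture from replicate number.

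Since the MΦ and MM-MΦ libraries that share a genotype and a number also varied together over all genes, the comparison was fitted again with the number as a block within genotype. This pairing brought the median standard error of the 49 genes to 0.145 in wt and 0.148 in BMI1-KO, with medians of 0.04 and 0.14, and still 0 of 49 passed in edgeR. Of all 14197 genes tested, 1.10% and 2.17% passed in that fit, and 915 and 1506 had an unadjusted p under 0.05. Unadjusted p under 0.05 was reached by 2 of the 49 genes in wt, Cdt1 (−0.26 on the log2 scale, SE 0.112, edgeR adjusted p = 0.657) and Gins1 (0.53, SE 0.241, edgeR adjusted p = 0.717). In BMI1-KO it was reached by 3 genes, Cdc6 (0.75, SE 0.241, edgeR adjusted p = 0.151), Uhrf1 (0.34, SE 0.122, edgeR adjusted p = 0.236) and Mcm10 (0.38, SE 0.148, edgeR adjusted p = 0.297). Per number, the mean of the 49 genes differed between MM-MΦs and MΦs by 0.01, 0.17 and −0.01 in wt and by 0.15, 0.08 and 0.19 in BMI1-KO on the log2 scale. Mcm3, Mcm10 and Rrm2 were higher in MM-MΦs in all 6 pairs. Of all genes tested, 4.9% were. Igkc, an immunoglobulin light chain gene, had 357 to 1327 counts in MM-MΦ and 8 to 157 counts in MΦ libraries. Summed over 10 plasma and myeloma cell genes, of which 6 or 7 reached 10 counts in a group, the level was 399 to 741 CPM in MM-MΦs and 264 to 495 CPM in MΦs, and its part in the values of the replication genes was not tested.

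The response to co-culture was also compared between genotypes. The interaction, co-culture in BMI1-KO minus co-culture in wt, had a median of 0.10 on the log2 scale over the 49 genes, with 36 above 0 and 13 below, from −0.49 for Gins1 to 0.63 for Cdc6. In edgeR 0 of 49 passed and 0 had an unadjusted p under 0.05, with an adjusted p of 1 for each, DESeq2 and limma-voom called 0, and of all genes tested 0% passed. Other genes with the smallest p of their role were Cdt1 at 0.26, Pold3 at 0.21, Rfc2 at 0.36, Dna2 at 0.23, Dut at 0.58 and Chaf1b at −0.16, with standard errors from 0.341 for Pold3 to 1.05 for Dut. With the replicate number as a block within genotype, 0 of 49 passed the interaction in edgeR, beside 0.00704% of all genes tested. Without wt MΦ replicate 3 the median was −0.88, without wt MM-MΦ replicate 3 it was 1.09, and without BMI1-KO MM-MΦ replicate 3 it was −0.30. These fits had no block and left a pair incomplete, so they cannot tell the response from the replicate number. The block within genotype gave a median of 0.08.

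Beyond the 49, 46 further genes of replication were listed, such as the kinase Cdc7, topoisomerase Top2a and the PCNA partner Pclaf, and 45 of them were tested. In BMI1-KO relative to wt MM-MΦs 38 were negative and 7 positive, with a median of −0.53, and in MΦs 37 were negative and 8 positive, with a median of −0.46. None rose or fell past the edgeR threshold in those comparisons, nor with co-culture in wt (29 above 0), with co-culture in BMI1-KO (27 above 0) or in the interaction (25 above 0). The 22 regulators of S phase entry had medians of −0.30 in MM-MΦs and −0.29 in MΦs between genotypes. Of these 22, 1 rose and 0 fell in each of these 2 comparisons, and 0 passed with co-culture or in the interaction. The gene that rose was Cdkn2a, which encodes the cell cycle inhibitors p16INK4a and p19ARF and is a known target of BMI1. It had 0, 0 and 1 counts in wt MM-MΦs and 108, 159 and 230 in BMI1-KO MM-MΦs (edgeR adjusted p = 0.00205), and 1, 0 and 7 counts in wt MΦs and 133, 144 and 179 in BMI1-KO MΦs (edgeR adjusted p = 0.00835). These counts did not overlap between genotypes, whereas those of the replication genes did with the 1 exception given above. E2f1, a main activator of S phase genes, differed by −0.31 on the log2 scale (SE 0.362, edgeR adjusted p = 0.999) in MM-MΦs, and Ccne1, a cyclin that drives S phase entry, of −0.94 (SE 1.13, edgeR adjusted p = 0.999).

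Levels were compared between genes on the FPKM scale of the authors, which divides by the summed exon length. Over the 12 libraries Pcna had the highest mean at 105 FPKM (59.5 to 164), followed by Dnmt1 at 33.5 FPKM. Mcm6 was the highest of the licensing genes at 21.5 FPKM and Orc1 the lowest at 1.09 FPKM. Of helicase activation, Gins4 was highest at 19.1 FPKM and Gins3 lowest at 0.927 FPKM, although both belong to 1 complex. Among polymerase genes Pold3 stood at 15.1 FPKM and Prim1 at 2.88 FPKM. Clamp, loader and single-strand binding genes ran down to Rpa3 at 1.9 FPKM, lagging strand genes from Fen1 at 12.3 to Dna2 at 2.14 FPKM, nucleotide supply from Rrm2 at 13.0 to Dut at 1.76 FPKM, and chromatin genes down to Chaf1a at 2.99 FPKM.

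The MCM ring takes equal numbers of its 6 subunits, and their RNAs differed by 2.71 to 5.34 times within a library. The lowest subunit and this ratio depend on the exon length, which is 6956 bases for Mcm2 and 3589 to 4666 for the others. Without it, on the CPM scale, wt MΦ replicate 3 ran from 130.7 for Mcm2 to 237.6 for Mcm6, and in BMI1-KO MΦ replicate 2 Mcm5 (31.7 CPM) lay below Mcm2 (35.2 CPM). Mcm2 had the lowest FPKM of the 6 in 11 of 12 libraries and Mcm5 in BMI1-KO MΦ replicate 1. Either Mcm3 or Mcm6 was the highest in all 12. In wt MΦs the lowest and highest subunit had 2.77 and 11.2 FPKM in replicate 1 and 20.4 and 55.4 FPKM in replicate 3. Ratios of partners differed between libraries, and on the FPKM scale their size also depends on exon length. The FPKM ratio of Rrm1 to Rrm2 was 1.23, 1.04 and 0.546 in wt MΦs and 0.926, 0.755 and 0.555 in wt MM-MΦs. It was 3.65, 0.694 and 0.713 in BMI1-KO MΦs and 1.92, 0.705 and 0.684 in BMI1-KO MM-MΦs. The summed exon length is 11012 bases for Rrm1 and 2771 for Rrm2. Without it, on the log2 CPM scale, Rrm1 ran from 4.41 to 8.05 over the libraries and Rrm2 from 0.72 to 6.91. The value of 3.65 rests on an Rrm2 level of only 0.52 FPKM. The ratio of Cdt1 to its inhibitor Gmnn was 6.03, 3.96 and 2.30 in wt MΦs, 4.60, 3.92 and 1.62 in wt MM-MΦs, 6.5, 5.22 and 2.94 in BMI1-KO MΦs and 7.29, 3.32 and 3.51 in BMI1-KO MM-MΦs. The ratio was highest in replicate 1 in each group, and the genotypes overlapped.

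**Figure D5:**
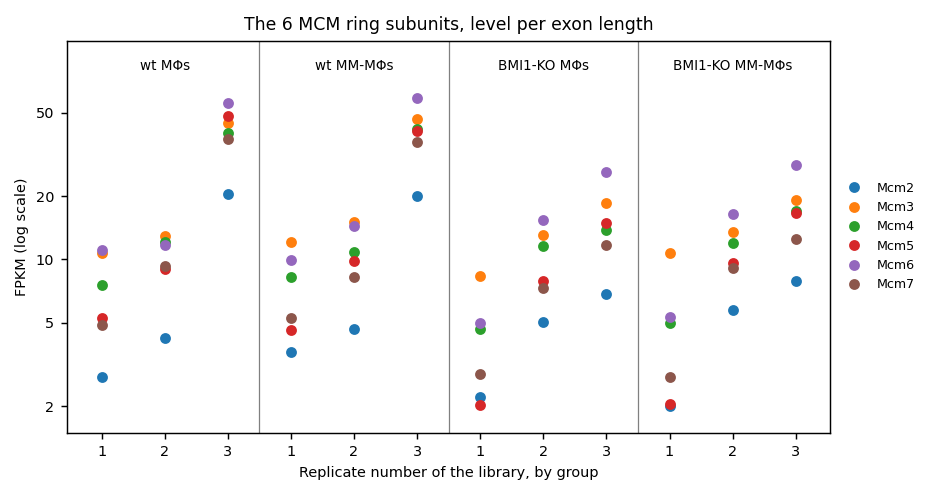
Points give the FPKM of Mcm2 to Mcm7 on a log axis in each library, by group and replicate number. Mcm2 is lowest in 11 of the 12 libraries, and the subunits lie between 20.4 and 55.4 FPKM in wt MΦ replicate 3 and between 2.02 and 8.30 FPKM in BMI1-KO MΦ replicate 1.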

How the data were processed

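For 12 libraries the authors deposited a table of raw gene counts and files of FPKM values, which divide counts by the summed exon size and the library total. Per the labels, reads were aligned to GRCm38 (mm10) with HISAT2 2.0.1 after cutadapt 1.9.1 and bcl2fastq 2.17.1.14, counted with HTSeq 0.6.1 and normalized with DESeq2. For the annotation release and the strand setting, nothing was found in the sources used here. Raw counts were analysed in R 4.3.3 with edgeR 4.0.16: filterByExpr (minimum count 10, minimum total 15), TMM, and the quasi-likelihood test in 1 model of the 4 groups, with Benjamini-Hochberg adjustment over 14197 genes and a threshold of 0.05. The common dispersion was 0.102. The script was tested on simulated data. Levels are CPM with TMM scaling, and log2 CPM used a prior count of 2. FPKM values were used to compare levels between genes and to bound the library totals. In the count table, 0 value columns had no sample.

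Genes were named by a rule: a set of 21 from all roles, the smallest p of each role, the largest and smallest fold change of each comparison, and the extremes of FPKM and span. E2f1, Ccne1, Igkc and genes below 0 without wt replicate 3 were named after their values were seen. Members, lists and tests were chosen with earlier results of these data known. Starts and ends of all 49 genes equal GENCODE M21, whose exons were used for overlaps. Protein sequences were not used here.

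Replicate numbers come from the labels. Deviations from the group means correlated across genes between MΦ and MM-MΦ libraries of the same number at 0.548, 0.361 and 0.725 for wt and at 0.642, 0.18 and 0.598 for BMI1-KO. Each is above 0.1, and within a genotype the numbers were taken to pair these libraries. Between genotypes the correlations were 0.481, −0.031 and 0.503 in MΦs and 0.497, 0.033 and 0.508 in MM-MΦs, so genotypes were not paired. The alternatives tried were DESeq2 1.42.0, limma-voom (limma 3.58.1), RLE scaling, other filters, fits to the 6 libraries compared, the replicate number as a block, leaving out each library and leaving out the 4 libraries numbered 3.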

Additional observations from a re-analysis of the deposited data

Results flagged for a closer look

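Pcna, the sliding clamp gene, was singled out because its 3 wt pairs moved one way with co-culture and its 3 BMI1-KO pairs the other way. MM-MΦs minus MΦs of the same number gave 0.04, 0.33 and 0.02 for wt and 0.00, −0.17 and −0.06 for BMI1-KO on the log2 CPM scale, the first BMI1-KO value being below 0 before rounding. The mean of the BMI1-KO pairs minus that of the wt pairs was −0.21. The opposite signs were not tested as such. The interaction test of edgeR gave −0.20 (SE 0.390, edgeR adjusted p = 1), and 2.1% of all genes tested showed opposite signs in the same way, beside 1 of the 49 genes. Groups of 3 libraries were too small for a search for single libraries far from the rest.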

How the results depend on the processing

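No gene of the list passed the test under DESeq2, RLE scaling, limma-voom, the other filters, fits to the 6 libraries compared, the block within a genotype, or without any 1 library. The exception was the fit that blocked on the replicate number across both genotypes, where pairing was not established: 1 gene was called between BMI1-KO and wt MΦs, Dna2 (−0.96, edgeR adjusted p = 0.0316). The block within a genotype changed no call of a listed gene. Over all genes tested, calls rose from 9 to 89 with DESeq2 and 181 with the block over all groups between BMI1-KO and wt MM-MΦs, and from 7 to 80 and 206 in MΦs. For co-culture they rose from 13 to 58 with DESeq2 and 156 with the block in wt, and from 27 to 91 and 308 in BMI1-KO. The block across both genotypes gave 63 and 110 there. In the order MM-MΦs and MΦs between genotypes, then co-culture in wt and in BMI1-KO, all-gene calls were 21, 14, 22 and 42 with no filter and 4, 2, 6 and 0 in fits to the 6 libraries compared. They fell to 2 for co-culture in wt with limma-voom and to 1 for co-culture in either genotype without the 4 libraries numbered 3. Without 1 library they were between 0 and 23. For the interaction they were 0, and 1 with the block within a genotype.

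Medians changed sign when a single library was left out, in each genotype comparison wt replicate 3. The fit without wt replicate 3 keeps that of BMI1-KO, and without all 4 libraries numbered 3 both genotype medians stayed below 0. Without 1 library in turn, the median log2 fold change of the 49 genes ranged from −1.14 to 0.20 between BMI1-KO and wt MM-MΦs, −1.19 to 0.11 between BMI1-KO and wt MΦs, −0.85 to 0.99 for co-culture in wt, −0.23 to 0.50 for co-culture in BMI1-KO and −0.88 to 1.09 for the interaction. Between BMI1-KO and wt, 43 of the 49 genes in MM-MΦs and 34 in MΦs lay above 0 without wt replicate 3. Ranges are given only for genes named by the smallest p of their role or the extreme fold change of a comparison. Those that changed sign between BMI1-KO and wt MM-MΦs were Mcm3 (−1.02 to 0.04), Chaf1b (−1.14 to 0.09) and Orc2 (−0.20 to 0.15), and in MΦs Cdc6 (−1.81 to 0.34), Gins2 (−1.37 to 0.45), Tyms (−2.69 to 0.09) and Orc2 (−0.47 to 0.25). For co-culture in wt they were Cdt1 (−0.59 to 0.06), Gins1 (−0.56 to 1.61), Pole2 (−0.54 to 0.71), Rfc4 (−1.31 to 0.51), Rnaseh2a (−0.55 to 0.08), Dut (−1.40 to 0.37) and Chaf1b (−0.81 to 0.83), and in BMI1-KO Tk1 (−0.24 to 0.77), Uhrf1 (−0.39 to 0.99) and Rpa3 (−0.81 to 0.54). For the interaction they were Cdt1 (−0.06 to 0.59), Gins1 (−1.59 to 0.58), Pold3 (−0.03 to 0.57), Rfc2 (−0.05 to 0.75), Dna2 (−0.35 to 0.74), Dut (−0.40 to 1.52), Chaf1b (−0.88 to 0.76) and Cdc6 (−0.98 to 1.64). These co-culture and interaction fits were unpaired, and leaving out 1 library broke a pair. Within pairs, Cdt1, Rfc4 and Dut fell and Gins1 rose with co-culture in all 3 wt pairs. Uhrf1 rose in all 3 BMI1-KO pairs. Pole2, Rnaseh2a and Chaf1b in wt and Tk1 and Rpa3 in BMI1-KO had both signs. Of all genes tested, 15.0% rose and 13.5% fell in all 3 wt pairs, and 14.7% rose in all 3 BMI1-KO pairs.

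Without the 4 libraries numbered 3, the medians were −0.15 in MM-MΦs and −0.19 in MΦs, with 10 and 15 of the 49 genes above 0. Of the genes named by p or fold change, signs changed for Orc2 in MM-MΦs (0.04), Gins2 (0.29) and Rfc2 (0.01) in MΦs, Pole2 (−0.03) and Chaf1b (−0.08) for co-culture in wt, Rpa3 for co-culture in BMI1-KO (0.53) and Dut for the interaction (−0.21). With limma-voom, Rpa3 for co-culture in BMI1-KO was 0.31. The cause was not tested. Restricting the list to its 30 genes with at least 10 CPM raised the mean log2 CPM in all groups by leaving out low genes, to 5.46 for MΦs and 5.52 for MM-MΦs of wt and 4.85 and 4.97 for those of BMI1-KO. With 3 libraries a group and this spread, standard errors on the log2 scale limit what could be told apart.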
